A study of Arabidopsis thaliana with 30 samples.

Results

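Polycomb repressive complex genes encode the proteins that place and read trimethylation of lysine 27 on histone H3 (H3K27me3), a mark of stably silenced genes. The 9 genes described here are the core subunits of Polycomb repressive complex 2 (PRC2) and the reader LHP1, chosen by name and locus from the 33602 loci counted: CLF, SWN, MEA, EMF2, VRN2, FIS2, FIE, MSI1 and LHP1. RNA was sequenced from Arabidopsis thaliana inflorescences in 15 libraries of 4 groups. All plants carried the reporter pSHP2-GAL4; pUAS-3xYpet, in which the SHP2 promoter drives the yeast activator GAL4 and GAL4 drives 3 copies of a yellow fluorescent protein (YFP), and all were in the ap1; cal; pAP1::AP1:GR background, mutant for the floral identity genes AP1 and CAL and carrying AP1 fused to the glucocorticoid receptor. The SHP2 promoter marks the medial domain of the young gynoecium, the tissue that gives rise to ovules and the septum, so YFP marks cells by promoter activity, past or present, and not by anatomy. YFP-POS (3 libraries) were protoplasts, which are cells freed of their walls, sorted for YFP. YFP-NEG (4 libraries) were protoplasts without YFP, ALL-SORT (4 libraries) were protoplasts passed through the sorter without selection on YFP, and NO-SORT (4 libraries) were whole inflorescences frozen without digestion. Ages and induction of the fusion protein are not given in the labels.

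In plants PRC2 has 4 kinds of subunit. An Enhancer of zeste protein (CLF, SWN or MEA) carries the methyltransferase activity, a Suppressor of zeste 12 protein (EMF2, VRN2 or FIS2) defines the type of complex, and FIE and MSI1 are the WD-repeat proteins shared by the types. CLF, SWN and EMF2 act in the plant body and keep floral homeotic genes silent outside their domains, VRN2 is known for the memory of winter cold, and MEA and FIS2 act in the female gametophyte and endosperm. LHP1 is a chromodomain protein that binds H3K27me3.

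The catalytic and Suppressor of zeste 12 subunits belong to gene pairs of common descent, so the longest identical stretches of their coding sequences are shown to let a reader judge whether reads could be assigned to the wrong copy. Each stretch is printed from RefSeq TAIR10.1, 5′ to 3′ on the coding strand, with identical bases in capitals and 10 flanking coding bases in lower case.
CLF, shared with SWN: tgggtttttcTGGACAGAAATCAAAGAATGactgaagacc
SWN, shared with CLF: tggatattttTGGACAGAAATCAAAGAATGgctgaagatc
SWN, shared with MEA: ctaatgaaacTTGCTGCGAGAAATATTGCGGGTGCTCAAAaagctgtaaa
MEA, shared with SWN: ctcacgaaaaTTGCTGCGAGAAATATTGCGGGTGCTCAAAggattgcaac
EMF2, shared with VRN2: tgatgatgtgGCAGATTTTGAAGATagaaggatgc
VRN2, shared with EMF2: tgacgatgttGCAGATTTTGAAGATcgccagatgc
The longest run was 20 bases for CLF and SWN, 30 bases for SWN and MEA, and 15 bases for EMF2 and VRN2. MSI1 shared at most 14 bases with its paralogs MSI2 and MSI3. All of these were far shorter than the reads of 125 cycles. In RefSeq TAIR10.1 the genes lie apart: CLF (AT2G23380) at chr2:9955092-9960386, SWN (AT4G02020) at chr4:886580-891987, EMF2 (AT5G51230) at chr5:20823644-20829644, VRN2 (AT4G16845) at chr4:9476069-9479878 and MSI1 (AT5G58230) at chr5:23556012-23558245, all on the plus strand. MEA (AT1G02580) lies at chr1:544733-549202 and FIS2 (AT2G35670) at chr2:14992565-14996756 on the plus strand, and FIE (AT3G20740) lies at chr3:7248809-7252452 and LHP1 (AT5G17690) at chr5:5827142-5829763 on the minus strand. Some members overlap the end of a neighbour on the other strand: CLF by 58 and 22 bases, MSI1 by 132 bases, FIS2 by 44 bases, FIE by 70 bases of a coding gene and 210 bases of a long noncoding RNA, and LHP1 by 12 bases. The libraries were strand-specific, but the strand setting of the counting is not given in the sources used here, so reads in these ends could have been shared. SWN, MEA, EMF2 and VRN2 overlap no annotated gene.

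Total counts ranged from 13969774 to 19011084 in YFP-POS, from 13422821 to 15774591 in YFP-NEG, from 12644721 to 21027032 in ALL-SORT and from 14941768 to 16692127 in NO-SORT. The sort was checked on SHP2 itself, which had 32.3 to 40.9 CPM (counts scaled to library size) in YFP-POS and 1.2 to 2.5 CPM in YFP-NEG. ALL-SORT replicate 4 stood apart from its group: the summed level of 4 stress response markers was 629 CPM there, the lowest of a range that reached 3572 CPM in ALL-SORT, against 2.39 to 16.9 CPM in NO-SORT. The labels call the libraries biological replicates without naming separate plants or pools, so p-values measure the spread between these samples.

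Of the 9 genes, 7 were detected in every library, and the pair known from the seed was not. MEA had 0 counts in all 15 libraries. FIS2 had 2 counts, both in ALL-SORT replicate 2, which is 0.135 CPM, and 0 in the other 14. A count of 0 allows a level of up to 3 counts, or 0.140 to 0.248 CPM depending on the library, and this limit covers counting error only. The female gametophyte and endosperm markers FWA, AGL80, AGL61, EC1.1, MYB98 and PHE1 summed to 0.71 to 1.43 CPM in YFP-POS, 2.55 to 3.20 CPM in YFP-NEG, 1.40 to 3.06 CPM in ALL-SORT and 1.14 to 1.76 CPM in NO-SORT, most of it from AGL80, and AGL61 had no count in any group. MEA and FIS2 did not pass the low-count filter in any comparison, so 7 members were tested.

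The catalytic subunit CLF was higher in YFP-POS, set against YFP-NEG, and SWN, which acts redundantly with it, did not pass the test. CLF had 63.7, 51.8 and 73.1 CPM in YFP-POS, against 33.7, 31.6, 40.5 and 36.1 CPM in YFP-NEG. Every YFP-POS library lay above every YFP-NEG library. The log2 fold change was 0.87 (SE 0.15), a 1.83-fold higher level, with an adjusted p of 4.34e-04 by edgeR's quasi-likelihood test with Benjamini-Hochberg adjustment over all genes. SWN had 64.7, 55.3 and 64.8 CPM in YFP-POS and 69.4, 64.4, 80.2 and 74.4 CPM in YFP-NEG, and these ranges overlapped. Its log2 fold change of -0.18 (SE 0.12) did not pass the test, with an edgeR adjusted p of 0.243. In bulk samples, fewer cells that express a gene and less RNA per cell cannot be told apart, for these and all results that follow.

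Among the Suppressor of zeste 12 genes EMF2 was called higher in YFP-POS over YFP-NEG, and VRN2 did not pass the test. EMF2 had 82.0, 75.3 and 87.8 CPM in YFP-POS, against 62.6, 68.6, 63.2 and 60.5 CPM in YFP-NEG, without overlap. The log2 fold change of EMF2 was 0.40 (SE 0.12), with an edgeR adjusted p of 0.0122. VRN2 had 62.2, 42.1 and 47.9 CPM in YFP-POS and 62.3, 55.0, 66.3 and 60.5 CPM in YFP-NEG, with 1 YFP-POS library inside the YFP-NEG range. Its log2 fold change was -0.23 (SE 0.14) and its edgeR adjusted p was 0.200.

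Of the WD-repeat subunits, MSI1, a histone-binding protein that is also part of chromatin assembly factor 1 (CAF-1), was higher in YFP-POS. MSI1 had 194.2, 193.6 and 141.3 CPM in YFP-POS, against 133.8, 135.5, 119.8 and 133.1 CPM in YFP-NEG. The ranges did not overlap, and YFP-POS replicate 3 came nearest to YFP-NEG. The log2 fold change was 0.47 (SE 0.13), with an edgeR adjusted p of 0.0107. Without YFP-POS replicate 2 the log2 fold change of MSI1 was 0.36 and its edgeR adjusted p 0.0742, which ended the call. FIE, the scaffold of the complex, had 37.8, 28.5 and 40.4 CPM in YFP-POS and 43.2, 36.3, 36.8 and 35.9 CPM in YFP-NEG, with overlapping ranges, a log2 fold change of -0.05 (SE 0.15) and an edgeR adjusted p of 0.785. LHP1 had 47.2, 37.2 and 52.8 CPM in YFP-POS and 39.0, 44.2, 41.6 and 42.8 CPM in YFP-NEG, with a log2 fold change of 0.17 (SE 0.14) and an edgeR adjusted p of 0.321.

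**Figure D1:**
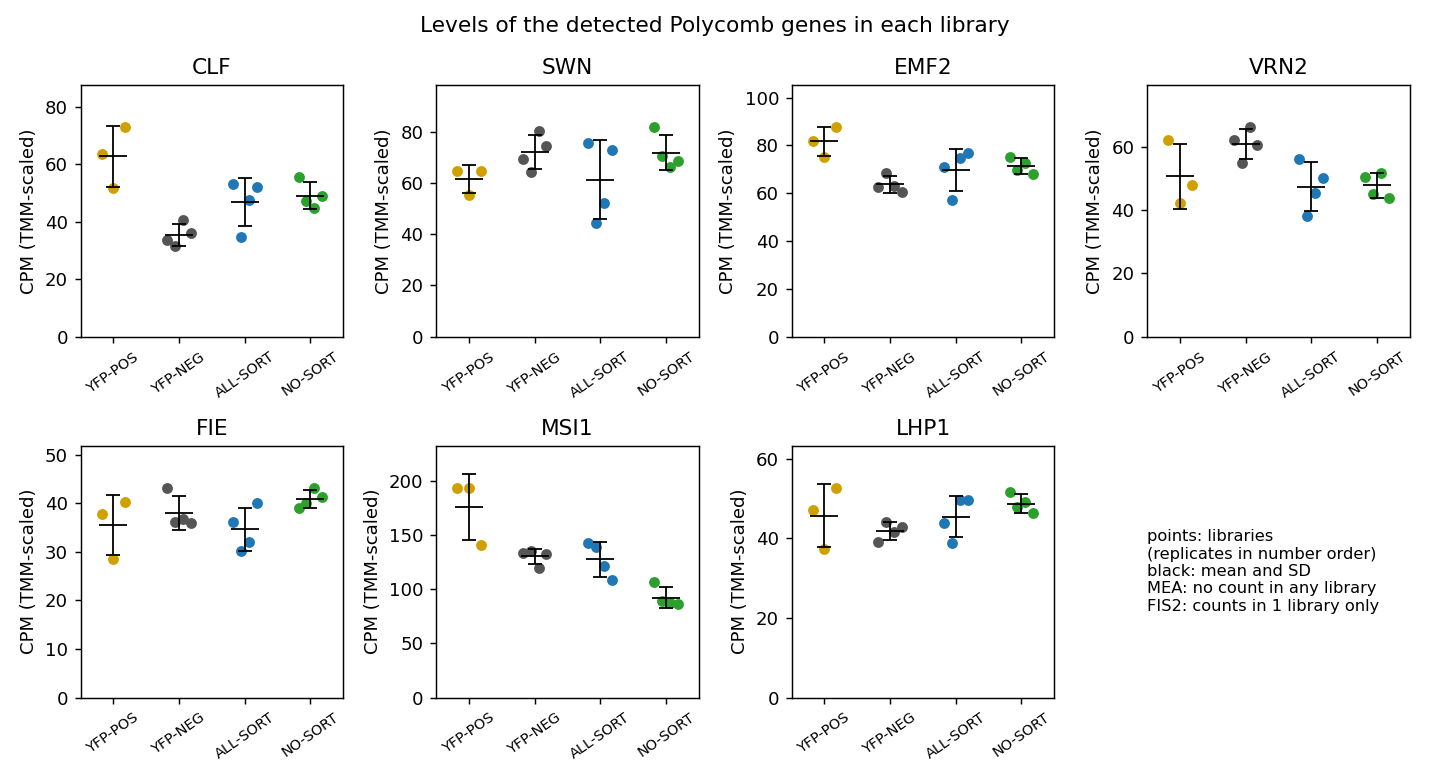
Level of each detected Polycomb gene in CPM after TMM scaling (y axis, from 0) in YFP-POS, YFP-NEG, ALL-SORT and NO-SORT. Points are libraries and black marks give the mean and SD; CLF, EMF2 and MSI1 show YFP-POS libraries wholly above YFP-NEG libraries, and the other 4 genes do not.

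In all, 3 of 7 tested members were called higher in YFP-POS than in YFP-NEG and 0 lower, at an adjusted p under 0.05. Of all 18830 genes tested, 48.8% were called in this comparison, 24.4% higher and 24.4% lower. The 3 called members were also those whose library ranges did not overlap, which held for 50.8% of all genes, 23.4% with YFP-POS higher. The share of members called, 3 of 7, was thus near the background. The members' median log2 fold change was 0.17, beside -0.01 for all genes.

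**Figure D2:**
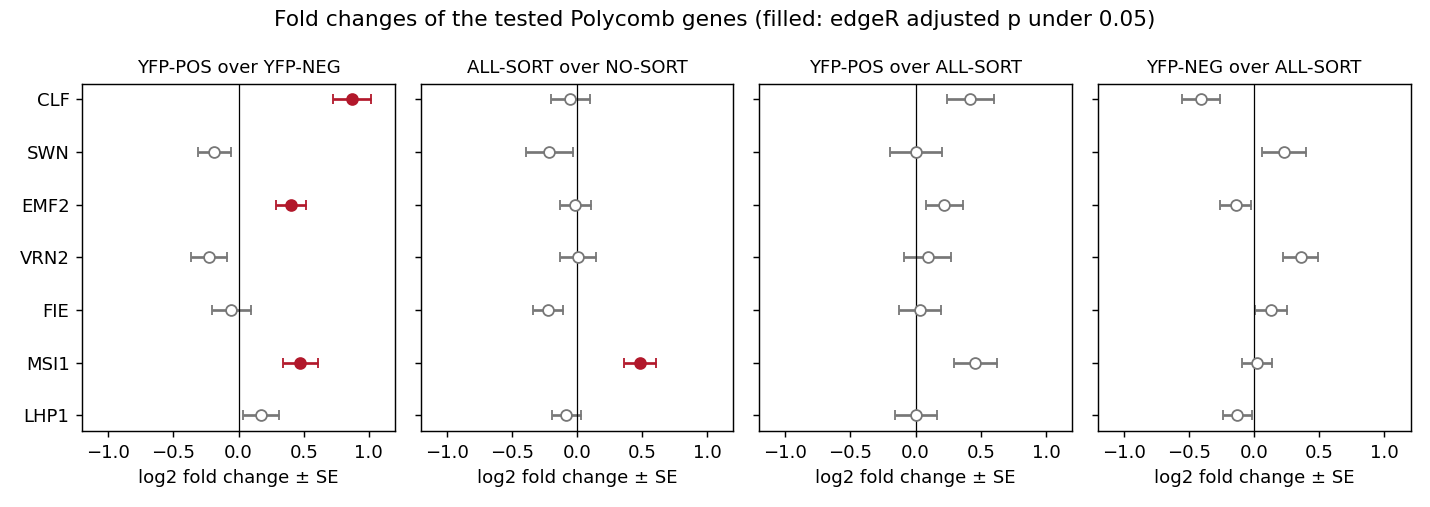
Log2 fold change (x axis) with its SE for the 7 tested Polycomb genes in each of the 4 comparisons, from edgeR; filled points passed an adjusted p of 0.05. CLF, EMF2 and MSI1 are filled for YFP-POS over YFP-NEG, MSI1 alone for ALL-SORT over NO-SORT, and none for the comparisons with ALL-SORT as the second group.

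Fold changes in this comparison moved with gene length, so the lengths stand beside the calls. The median log2 fold change of YFP-POS over YFP-NEG was -0.22 for genes with up to 1000 exonic bases, -0.08 up to 2000, 0.12 up to 3000, 0.22 up to 4000 and 0.39 above that. CLF has 3514 exonic bases and SWN 3403, so both fall in the group with a median of 0.22, of which 38.0% was called higher. CLF lay above that median and SWN below it. EMF2 has 2705 exonic bases, where 31.3% was called higher, and MSI1 has 1626, where the median was -0.08 and 19.7% was called higher. Genes over 3000 bases took 13.3% to 17.4% of counts in YFP-POS, 12.1% to 13.0% in YFP-NEG, 11.5% to 18.1% in ALL-SORT and 15.3% to 19.1% in NO-SORT. The part of length in the results for CLF and EMF2 was not tested.

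**Figure D3:**
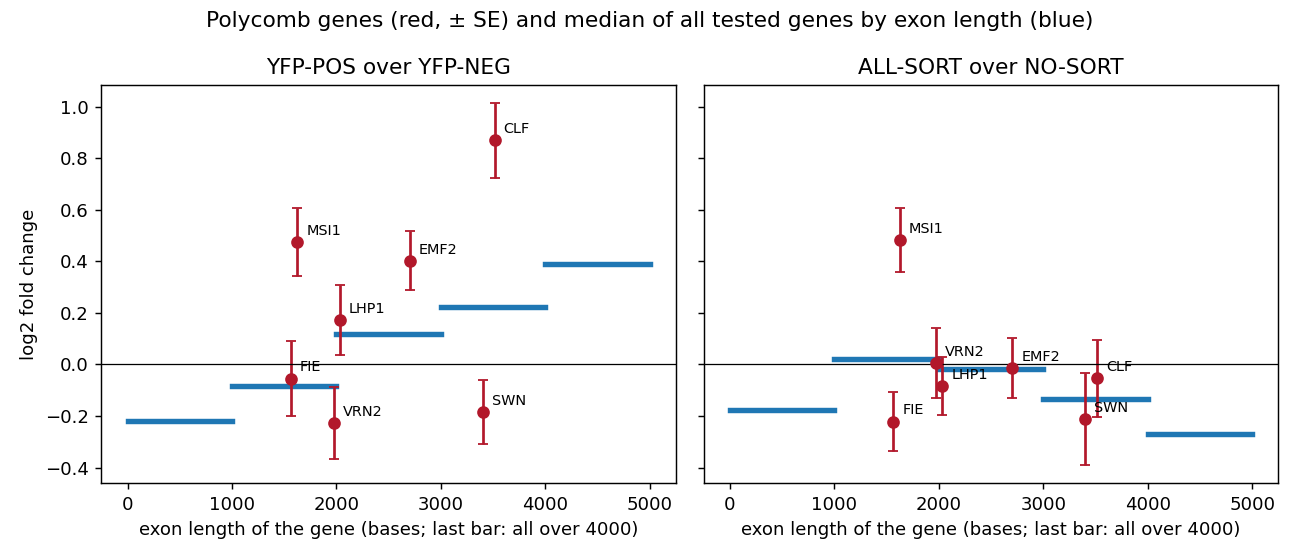
Log2 fold change (y axis) against exonic length in bases (x axis) for YFP-POS over YFP-NEG (left) and ALL-SORT over NO-SORT (right). Red points with SE are the Polycomb genes and blue bars the median of all tested genes in each length group; CLF and SWN have nearly the same length and differ from that group's median of 0.22 in opposite directions on the left.

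The balance between the paralogs was read within each library, where scaling between libraries cannot enter. The ratio of SWN to CLF counts was 1.02, 1.07 and 0.887 in YFP-POS, against 2.06, 2.04, 1.98 and 2.06 in YFP-NEG. It was 1.43, 1.28, 1.096 and 1.40 in ALL-SORT and 1.47, 1.49, 1.48 and 1.40 in NO-SORT. The counts were thus close to equal in YFP-POS and near 2 to 1 in YFP-NEG, with the unselected groups between. On the log2 scale the ratio was -0.02 ± 0.14 in YFP-POS (SD, n = 3) and 1.02 ± 0.03 in YFP-NEG (SD, n = 4), a difference of -1.04. An exact 2-sided permutation test that doubles the smaller tail gave p = 0.0571, the smallest this form allows for 3 against 4 libraries, and 0.0980 after Benjamini-Hochberg adjustment over 12 ratio tests. Counting splits by their absolute difference, the exact test gave p = 0.0286, adjusted 0.0857.

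The ratio of VRN2 to EMF2 counts was 0.758, 0.559 and 0.545 in YFP-POS, against 0.801 to 1.05 in YFP-NEG, and ran from 0.608 to 0.790 in ALL-SORT and from 0.645 to 0.713 in NO-SORT. All YFP-POS ratios lay below all YFP-NEG ratios, by -0.64 on the log2 scale on average (exact permutation test, doubled tail p = 0.0571, adjusted 0.0980; by absolute difference p = 0.0286, adjusted 0.0857). YFP-NEG stood above ALL-SORT in both ratios without overlap, by 0.65 for SWN to CLF and 0.50 for VRN2 to EMF2 (exact permutation p = 0.0286 each, adjusted p = 0.0980). The ratio of MSI1 to FIE ran from 3.50 to 6.79 in YFP-POS and from 3.09 to 3.74 in YFP-NEG, and these ranges overlapped. None of the 12 ratio tests passed 0.05 after adjustment in either form. Gene length can still enter the ratio of VRN2 to EMF2, which have 1974 and 2705 exonic bases. Their length groups had median log2 fold changes of -0.08 and 0.12 in YFP-POS over YFP-NEG. The part of length in this ratio was not tested.

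Levels of different genes are compared here only per exonic length, as RPKM, the TMM-scaled CPM divided by exonic length in kilobases. MSI1 had the highest level of the members in every group: 108 RPKM in YFP-POS, 80.3 in YFP-NEG, 78.7 in ALL-SORT and 56.9 in NO-SORT. The other detected members lay between 10.09 RPKM (CLF in YFP-NEG) and 30.9 RPKM (VRN2 in YFP-NEG). CLF made up 49.5% ± 2.4 of the summed Enhancer of zeste level in YFP-POS (SD, n = 3), 32.2% ± 0.42 in YFP-NEG, 42.8% ± 2.95 in ALL-SORT and 39.9% ± 0.65 in NO-SORT (SD, n = 4 each). The summed level of the class was 36.0 RPKM in YFP-POS, 31.3 in YFP-NEG, 31.3 in ALL-SORT and 35.1 in NO-SORT. EMF2 made up 54.3% ± 4.6 of the Suppressor of zeste 12 class in YFP-POS (SD, n = 3), 43.3% ± 3.0 in YFP-NEG, 51.9% ± 2.8 in ALL-SORT and 52.2% ± 1.2 in NO-SORT (SD, n = 4 each). These shares restate the ratios above and are no separate test.

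**Figure D4:**
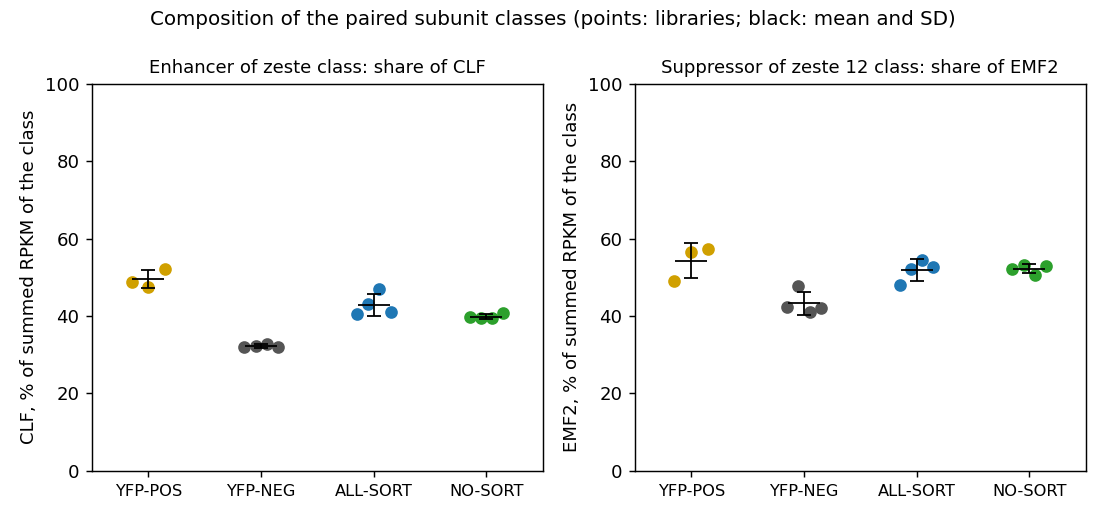
Share of CLF in the summed RPKM of CLF, SWN and MEA (left) and of EMF2 in that of EMF2, VRN2 and FIS2 (right), in percent from 0 to 100. Points are libraries and black marks the mean and SD; CLF reaches 47.6% to 52.2% in YFP-POS and 32.0% to 32.8% in YFP-NEG.

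Making and sorting protoplasts was gauged by ALL-SORT against NO-SORT, where 1 of 7 tested members was called, beside 13.4% of 18733 genes, 9.84% higher and 3.60% lower. Of 6 medial gynoecium markers 4 were called higher there and 0 lower. SPT averaged 62.8 CPM in ALL-SORT and 33.1 in NO-SORT, while CRC averaged 73.6 and 102.7. The treatment and a shift in cell make-up therefore cannot be told apart in this comparison. MSI1 had 142.5, 139.7, 121.3 and 108.3 CPM in ALL-SORT, against 106.6, 89.1, 87.5 and 86.9 CPM in NO-SORT. The lowest ALL-SORT library, replicate 4, lay just above the highest NO-SORT library, replicate 1. Ranges stood apart for 22.8% of all genes, 13.0% with ALL-SORT higher. The log2 fold change of MSI1 was 0.48 (SE 0.12), with an edgeR adjusted p of 0.0317. With library totals in place of TMM it was 0.36 with an adjusted p of 0.0570, and the call was also lost in 6 of the 8 fits that leave out 1 library, ALL-SORT replicates 1, 2 or 3 or NO-SORT replicates 2, 3 or 4, where the log2 fold change was 0.45 to 0.51. Without both ALL-SORT replicate 4 and NO-SORT replicate 1 it was 0.63 with an adjusted p of 0.00191. MSI1 was thus called higher both here and in YFP-POS over YFP-NEG, where the call was lost without YFP-POS replicate 2. These comparisons share no library, but same-numbered libraries of the sorted groups deviated together. Whether the calls are independent was not tested, and they are not taken as such.

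The other members did not pass the test between ALL-SORT and NO-SORT. CLF had 53.0, 34.8, 47.4 and 52.1 CPM in ALL-SORT and 55.7, 47.3, 44.8 and 48.9 CPM in NO-SORT (log2 fold change -0.05, SE 0.15). SWN had 75.7, 44.4, 52.0 and 72.8 CPM in ALL-SORT and 81.9, 70.4, 66.4 and 68.7 CPM in NO-SORT (-0.21, SE 0.18). ALL-SORT replicate 2 was the lowest ALL-SORT library for CLF, SWN, EMF2, VRN2, FIE and LHP1, and it had the lowest share of counts in genes over 3000 bases, 11.5%. EMF2 had 57.2 to 76.7 CPM in ALL-SORT and 67.9 to 75.3 CPM in NO-SORT, and VRN2 had 38.1 to 56.2 CPM in ALL-SORT and 43.9 to 51.8 CPM in NO-SORT. FIE had 30.2 to 40.1 CPM in ALL-SORT and 39.0 to 43.1 CPM in NO-SORT, and LHP1 had 38.9 to 49.7 CPM in ALL-SORT and 46.3 to 51.7 CPM in NO-SORT. These 4 genes overlapped between the groups. Their log2 fold changes ran from -0.22 for FIE to 0.01 for VRN2.

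YFP-POS and YFP-NEG were each also set against ALL-SORT, and since both use the same ALL-SORT libraries their values stand side by side only. edgeR called 0 of 7 members in YFP-POS over ALL-SORT, beside 13.8% of 18767 genes (3.36% higher, 10.5% lower), with 2 members at an unadjusted p under 0.05 and 1 called by DESeq2. The log2 fold changes there were 0.42 (SE 0.18) for CLF, 0.46 (SE 0.16) for MSI1 and 0.22 (SE 0.14) for EMF2, with edgeR adjusted p of 0.167, 0.0986 and 0.345. Same-numbered libraries of the 3 sorted groups deviated together, and with a block for the number edgeR called these 3 members, CLF at 0.48 (adjusted p 9.10e-04), MSI1 at 0.38 (adjusted p 0.00280) and EMF2 at 0.27 (adjusted p 0.0202), as the genes called in all went to 8074. In YFP-NEG over ALL-SORT edgeR also called 0 of 7, beside 13.6% of 18658 genes (2.65% higher, 10.9% lower), with 2 members at an unadjusted p under 0.05 and 0 called by DESeq2. CLF was at -0.41 (SE 0.15, adjusted p 0.0935) and VRN2 at 0.36 (SE 0.13, adjusted p 0.0957). With the replicate block CLF was called lower in YFP-NEG at -0.40 (edgeR adjusted p 0.0492), and without ALL-SORT replicate 2 at -0.51 (adjusted p 0.0212).

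Across groups the order of mean levels was YFP-POS, NO-SORT, ALL-SORT, YFP-NEG for both CLF and EMF2, with overlap between each pair of neighbours. SWN was highest in YFP-NEG and NO-SORT (72.1 and 71.8 CPM on average) and lower in YFP-POS and ALL-SORT (61.6 and 61.2 CPM), and NO-SORT and YFP-POS were neighbours whose ranges stood apart. MSI1 ran from YFP-POS over YFP-NEG and ALL-SORT down to NO-SORT, and its middle pair overlapped. VRN2 was highest in YFP-NEG, and FIE and LHP1 were highest in NO-SORT, each with overlap between all neighbours. Over the 15 libraries, log2 CPM of CLF and EMF2 had a Pearson r of 0.874 and that of FIE and MSI1 an r of -0.579, given as a description since libraries share group, length composition and depth.

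The 2 genes most alike to each member across the 15 libraries were taken by the highest Pearson r of log2 CPM among 19459 genes. For CLF they were AT5G06050 (0.974) and SUVR2 (0.968), which encodes a SET-domain protein. For EMF2 they were AT4G22285 (0.944) and AT4G15020 (0.936), and for SWN they were GC2 (0.956), a golgin, and ALA2 (0.944), a lipid-transporting ATPase. For MSI1 they were HD2B (0.985), a plant-type histone deacetylase, and CDKB1;1 (0.983), a cyclin-dependent kinase of the cell cycle. For VRN2 they were AT1G69060 (0.955) and SAE2 (0.950), a SUMO-activating enzyme subunit, for FIE AT5G37000 (0.926) and AT3G59040 (0.916), and for LHP1 AT2G34300 (0.899) and AT5G53080 (0.893).

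Markers of dividing cells were mostly higher in YFP-POS. The 6 markers CYCB1;1, CDKB2;1, KN, MCM5, CDC6 and HIS4 summed to 780 to 1055 CPM in YFP-POS, 533 to 698 CPM in YFP-NEG, 474 to 666 CPM in ALL-SORT and 687 to 746 CPM in NO-SORT. Of these, 4 were called higher in YFP-POS over YFP-NEG and 0 lower, beside 24.4% each way over all genes. In ALL-SORT over NO-SORT, where MSI1 was called higher, 1 was called lower and 0 higher, beside 3.60% and 9.84% of all genes. The stress response markers WRKY40, RRTF1, MYB15 and ZAT12 summed to 1272 to 1831 CPM in YFP-POS and 2868 to 4099 CPM in YFP-NEG, and all 4 were called lower in YFP-POS over YFP-NEG and higher in ALL-SORT over NO-SORT. The stamen and petal markers AP3 and PI summed to 94.6 to 133 CPM in YFP-POS and 381 to 432 CPM in YFP-NEG. The part of these cell states in the members' results was not tested.

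Genes linked to PRC2 were read from 7 lists of 59 genes. The list counts come from fits without the replicate block, although same-numbered libraries of the sorted groups deviated together. Of the relatives of MSI1 and the CAF-1 subunits, 4 of 6 were called higher in YFP-POS over YFP-NEG and 0 lower, beside 24.4% higher and 24.4% lower over all genes. The same 4, MSI2, MSI3, MSI4 and MSI5, were called in each fit that left out 1 library. On the log2 scale MSI3 was at 0.94, MSI4, which acts in flowering time, at 0.86 and MSI5 at 0.74, while the CAF-1 subunits FAS1 and FAS2 were at 0.00 and 0.25 and did not pass. MSI4 had 349.2, 348.5 and 288.5 CPM in YFP-POS, against 195.4, 194.3, 174.0 and 181.6 CPM in YFP-NEG. In YFP-POS over ALL-SORT, MSI2 and MSI3 were called higher at 0.43 and 0.54. In YFP-NEG over ALL-SORT, MSI3 and MSI4 were called lower at -0.37 and -0.40.

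PRC1 is the second Polycomb complex, which adds ubiquitin to histone H2A through RING1 and BMI1 proteins. Of the 6 tested genes of the list, which includes EMF1 and VRN1, none was called by edgeR or DESeq2 in YFP-POS over YFP-NEG. Over all genes edgeR called 48.8% there. RING1B alone had an unadjusted edgeR p under 0.05 (log2 fold change -0.47, adjusted p 0.0557). RING1B was called lower there without YFP-POS replicate 3, and it was called higher in YFP-NEG over ALL-SORT at 0.60. Of 10 tested partners of PRC2, 2 were called higher in YFP-POS over YFP-NEG and 1 lower, beside 48.8% of all genes called. Without YFP-POS replicate 1 they were 3 and 3, and without YFP-POS replicate 3 or YFP-NEG replicate 2 they were 2 and 2. PWO1, a PWWP-domain protein that binds PRC2, had 41.99, 31.29 and 43.96 CPM in YFP-POS, against 16.05, 18.95, 21.04 and 17.97 CPM in YFP-NEG, a log2 fold change of 1.12 without overlap. VRN5, which joins PRC2 at the vernalization gene FLC, was at 0.66, and BPC1, a factor that binds GA repeats and can recruit PRC2, was at -0.53. VIN3, the cold-induced partner of VRN5, had at most 0.974 CPM in any library and was not tested.

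**Figure D5:**
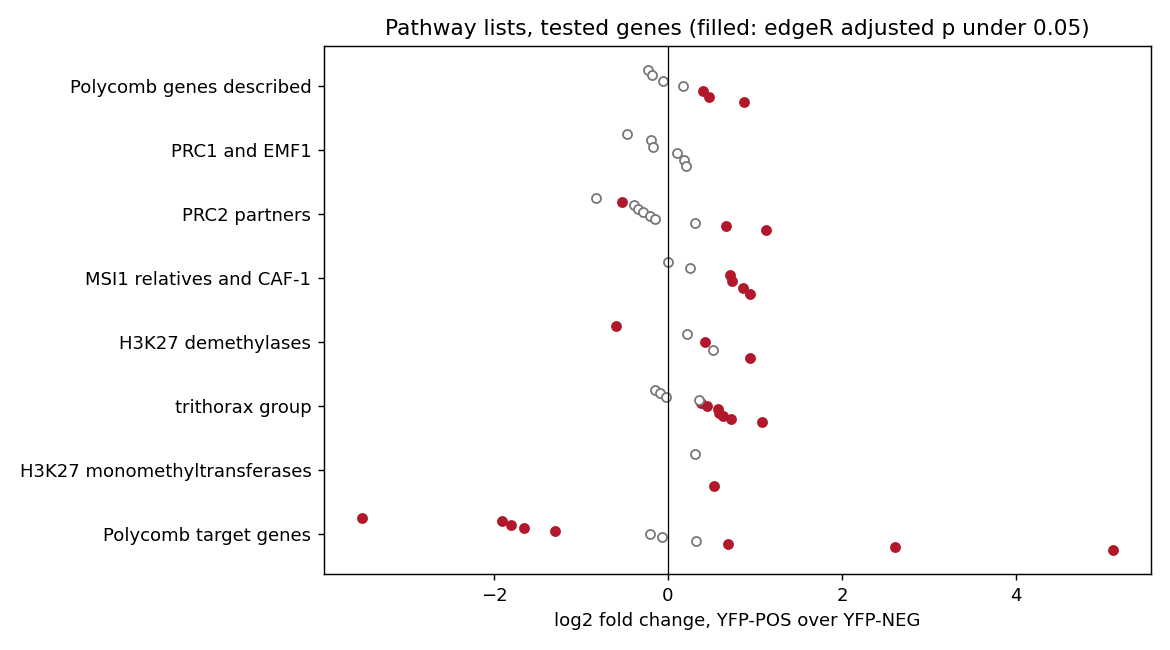
Log2 fold change of YFP-POS over YFP-NEG (x axis) for each tested gene of the Polycomb set and of 7 related lists (y axis, 1 row a list; vertical offsets only separate points). Filled points passed an edgeR adjusted p of 0.05; the filled points of the MSI1 relatives and of the trithorax group all lie to the right of 0, and those of the target genes lie on both sides.

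Lists of trithorax-group genes and of enzymes that act on H3K27 were also read in YFP-POS over YFP-NEG, where 48.8% of all genes were called. Trithorax-group genes, which keep genes active, had 7 of 11 called higher by edgeR (6 by DESeq2) and 0 lower, beside 24.4% higher over all genes. That count of higher calls rested on single libraries: it was 3 without YFP-POS replicate 1, YFP-NEG replicate 2 or YFP-NEG replicate 4, and 4 without YFP-NEG replicate 1 or 3. Without YFP-POS replicate 1, PKL was called lower. The summed level of the list was 1193, 730 and 729 CPM in YFP-POS, against 615 to 697 CPM in YFP-NEG, with YFP-POS replicate 1 far above the other YFP-POS libraries. It was 579 to 1224 CPM in ALL-SORT and highest in intact NO-SORT, at 997 to 1453 CPM. In YFP-POS over ALL-SORT 0 of 11 were called, beside 13.8% of all genes, in a fit without the replicate block. With the block 8074 genes were called in all, and the list was not read from that fit. ATX1, an H3K4 methyltransferase, at a log2 fold change of 1.08, and the chromatin remodeller BRM, at 0.72, had ranges that stood apart and were called in each fit that left out 1 library. The remodeller SYD, at 0.64, had 309.95, 180.3 and 112.5 CPM in YFP-POS, against 121.4 to 142.9 CPM in YFP-NEG, and its ranges overlapped, as did those of ATX3, ATXR3 and ULT1. Of 5 H3K27 demethylases, REF6 (0.94) and ELF6 (0.43) were called higher and JMJ30 lower (-0.59), beside 24.4% each way over all genes. The 5 summed to 161 to 213 CPM in YFP-POS, 146 to 157 in YFP-NEG, 142 to 228 in ALL-SORT and 221 to 250 in NO-SORT. REF6 was the one called in each fit that left out 1 library. ELF6 was lost without YFP-POS replicate 1 or 3 or YFP-NEG replicate 2 or 4, and JMJ30 without YFP-POS replicate 1 or YFP-NEG replicate 1, 2 or 4. Of the H3K27 monomethyltransferases, ATXR6 was called higher at 0.53, though not without YFP-POS replicate 2, and ATXR5 did not pass at 0.31. Length may bear on these lists too, as 46.4% of all tested genes over 4000 bases were called higher in this comparison. The lengths of the listed genes are not given here, and the part of length was not tested. In ALL-SORT over NO-SORT the demethylase JMJ13 was called higher at 0.60, and in YFP-POS over ALL-SORT JMJ30 was called lower at -0.98.

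Known targets of PRC2 were called in both directions. Of 17 listed genes 11 were tested in YFP-POS over YFP-NEG, and 3 were called higher and 5 lower, beside 24.4% each way over all genes. The same 8 were called in each fit that left out 1 library. The carpel and ovule MADS genes SHP1, STK and AG were at 5.11, 2.61 and 0.69, and the flowering signal FT and the petal and stamen genes AP3 and PI were at -3.52, -1.91 and -1.81. SHP1 is a close relative of the gene whose promoter defined the sort, and AP3 and PI mark organs outside the gynoecium. The 6 targets that were not tested, FLC, PHE1, LEC1, LEC2, FUS3 and ABI3, had at most 0.304 CPM in any library. The median log2 fold change of the targets tested was -0.21, beside -0.03 for the PRC1 list, -0.25 for the partners, 0.72 for the relatives of MSI1 with CAF-1, 0.43 for the demethylases and 0.44 for the trithorax group. In YFP-POS over ALL-SORT 3 of 11 tested targets were called higher and 5 lower, beside 3.36% and 10.5% of all genes. In ALL-SORT over NO-SORT 0 of 10 were called higher and 1 lower, beside 9.84% and 3.60%. In YFP-NEG over ALL-SORT 1 of 10 was called higher and 1 lower, beside 2.65% and 10.9%. H3K27me3 was not measured in these libraries.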

How the data were processed

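Counts per locus in 15 libraries were deposited by the authors as whole numbers without normalization, 1 column for both lanes of a library. TAIR10, TopHat2 2.0.10, HTSeq, edgeR, DESeq2, FastQC and Cufflinks 2.2.1 are named in the submitters' processing notes, without their roles. Strand setting and joining of lanes are not given in the sources used here. Columns were assigned to groups by name. Genes were tested in edgeR 4.0.16 by its quasi-likelihood test (R 4.3.3; filterByExpr, TMM, Benjamini-Hochberg over all genes tested; only the 2 groups compared), and called at an adjusted p under 0.05. SE is the log2 fold change over the square root of F. CPM use TMM over all libraries. Ratios of counts (0.5 added) within libraries were compared by an exact 2-sided permutation test that doubles the smaller tail. DESeq2 1.42.0, other scalings and filters, a replicate block and left-out libraries were alternatives. Code was tested on simulated counts.

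Every member is named. From each list up to 3 genes with the largest called change in each direction are named, with any that bear on a statement. The members and lists were chosen with earlier results of these data known. Gene models are from RefSeq TAIR10.1, matched by locus tag to 32835 of 33602 loci. The replicate numbers paired the sorted groups: deviations from group means of same-numbered libraries correlated at 0.183 to 0.294 for YFP-POS with YFP-NEG, 0.363 to 0.437 for YFP-POS with ALL-SORT and 0.124 to 0.350 for YFP-NEG with ALL-SORT, over 19460 genes and above a limit of 0.1. For ALL-SORT with NO-SORT they were -0.080 to 0.037.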

Additional observations from a re-analysis of the deposited data

Results flagged for a closer look

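Among 28 sets of 4 libraries (levels of members with a count, and the shares of CLF and EMF2 in their classes), 4 had a library far from the other 3, where chance gives about 1 in 20. FIS2 had 0.135 CPM in ALL-SORT replicate 2, from 2 counts, and 0 in the other 3. A set with counts in a single library is always flagged, so FIS2 cannot be weighed against that rate. FIE had 43.2 CPM in YFP-NEG replicate 1, against 35.9 to 36.8 CPM in the others. MSI1 had 119.8 CPM in YFP-NEG replicate 3, against 133 to 135 CPM, and 106.6 CPM in NO-SORT replicate 1, against 86.9 to 89.1 CPM in the others.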

How the results depend on the processing

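In YFP-POS over YFP-NEG, CLF and EMF2 were called in all 14 alternatives, with log2 fold changes of 0.73 to 0.95 and 0.33 to 0.43, and the replicate block left all 3 calls (9521 genes in all). The block changed no member's call in ALL-SORT over NO-SORT, where same-numbered libraries did not deviate together. Counts of called members moved as follows. In ALL-SORT over NO-SORT library totals gave 0, and leaving out 1 library 0 to 1. In YFP-POS over ALL-SORT, DESeq2 gave 1 (MSI1), a fit of all 15 libraries 1, the replicate block 3, and leaving out 1 library 0 to 1. In YFP-NEG over ALL-SORT the replicate block gave 1, and leaving out 1 library 0 to 1. All genes called in ALL-SORT over NO-SORT were 3864 by DESeq2, 5928 without ALL-SORT replicate 4 and NO-SORT replicate 1 (chosen after seeing the data), and 1204 to 5632 without 1 library, against 2518. In YFP-POS over ALL-SORT they were 8074 with the block, 4665 with all libraries and 1134 to 3082 without 1 library, against 2598. In YFP-NEG over ALL-SORT they were 870 to 2984 without 1 library, against 2532.

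Library totals shifted the median of all genes in ALL-SORT over NO-SORT to -0.16 from -0.04, and the share of calls that were higher to 53.9% from 73.2%. Some members that were not called changed sign, in 24 of 413 alternative fold changes. VRN2 in ALL-SORT over NO-SORT was -0.11 with library totals, -0.0050 with the replicate block and -0.010 with all libraries. Without 1 library, log2 fold changes ranged from -0.17 to 0.037 for FIE in YFP-POS over YFP-NEG. In ALL-SORT over NO-SORT they ranged from -0.11 to 0.075 for CLF, -0.066 to 0.080 for EMF2 and -0.068 to 0.11 for VRN2. In YFP-POS over ALL-SORT they ranged from -0.13 to 0.15 for SWN, -0.038 to 0.21 for VRN2, -0.045 to 0.17 for FIE and -0.089 to 0.13 for LHP1, and in YFP-NEG over ALL-SORT from -0.048 to 0.091 for MSI1. The cause was not tested.

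The ratio tests were first computed by counting splits of at least the observed absolute difference. The doubled tail replaced that form after its values were seen, because it matches the limit of 2 in 35 set in the design. By absolute difference the exact permutation p was 0.0286 for SWN to CLF (-1.04) and VRN2 to EMF2 (-0.64) in YFP-POS over YFP-NEG, with adjusted p of 0.0857. Leaving out libraries for the gene lists was chosen after seeing the data. In YFP-NEG over ALL-SORT the differences were 0.65 and 0.50 with the replicate block (exact sign-flip p = 0.125 each), and 0.57 to 0.70 and 0.45 to 0.58 without 1 library. There, the doubled tail with fewer libraries allows no lower exact p than 0.0571. Without 1 library, VRN2 to EMF2 in ALL-SORT over NO-SORT ranged from -0.057 to 0.069 and MSI1 to FIE in YFP-NEG over ALL-SORT from -0.26 to 0.0024.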
